A study of Mus musculus with 8 samples.

Results

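The comparison described here set skin of hairloss mice against skin of wildtype mice at postnatal day 28, across protein-coding genes with a value of at least 1 FPKM in either library. FPKM, the unit in which the deposited values were read, counts sequenced fragments relative to the length of the transcript and the size of the library. Of 21976 protein-coding genes in the files, 13441 met this rule. The hairloss mice carry a spontaneous mutation and the wildtype mice do not, and the series title names keratins and keratin-associated proteins as the genes of interest in the mutated animals. Total RNA of whole skin was sequenced in 8 libraries, 1 for each genotype at days 0, 16, 19 and 28, and 2 of them make up the comparison. The sources used here do not give the mutated gene, the strain, the sex, the body site of the skin or the number of animals in a library. With 1 library per genotype there was no replicate error and no test, so every difference describes these 2 libraries.

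Differences are given as hairloss minus wildtype on the log2(FPKM + 1) scale, which narrows the differences of low genes. A gene was counted as higher or lower in the hairloss library when this difference was at least 2-fold. A gene under 1 FPKM in 1 library was compared only because of its value in the other, so its direction followed from the filter. In pairs of FPKM values the wildtype library comes first. The depth estimated from the lowest values was 36300000 fragments for the wildtype and 43700000 for the hairloss library, so that a transcript of 1 kb with 3 fragments would have 0.0826 and 0.0687 FPKM, counting error only. Defining genes of skin were high in each library, among them the basal keratin Krt5 (712 and 1334 FPKM) and the collagen chain Col1a2 (3575 and 1731 FPKM). The libraries differed in sex markers. Xist, which silences an X chromosome in females, stood at 0.166 and 50.2 FPKM, while the Y-linked genes Ddx3y, Uty and Eif2s3y stood at 16.5, 11.8 and 41.2 FPKM in the wildtype library and were listed at 0 in the hairloss library, and Kdm5d stood at 8.87 and 0.00545 FPKM. Sex and genotype therefore cannot be told apart in any gene at this age. An exact 0 can also be a failed estimate. Col1a1, a fibrillar collagen chain, was listed at 0 in the wildtype library and at 1583 FPKM in the hairloss library, and Col3a1 at 3140.5 FPKM and 0. These 2 collagens are among 8 coding genes listed at 0 in 1 library of day 28 with every value above 0 in the 8 libraries at 5 FPKM or more. The rule does not separate failed estimates from real absence, and it also took Ddx3y and Uty, Krtap6-3, Sprr2d, Defb8 and AC141477.1, whose values are given as listed.

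Hair follicles pass through phases of growth, regression and rest. In the growth phase, matrix cells at the base of the follicle divide and mature into the hair shaft, which is built from hair keratins cross-linked by keratin-associated proteins (KRTAPs), and into the inner root sheath that moulds it, while melanocytes in the bulb pass pigment to the shaft. Between the follicles, keratinocytes leave the basal layer and build a cornified barrier from keratins, filaggrin and envelope proteins, and under stress they express alarmins and the wound keratins.

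The promoters of 6 genes are printed first, as examples from the hair shaft, pigment and xenobiotic response groups, to show the sequence upstream of genes that differed by at least 2-fold. Each sequence is the 250 bases before the RefSeq start of the gene in GRCm38.p6, written 5′ to 3′ on the strand of the gene. For the hair shaft keratin Krt31 (chr11:100050552-100050801, minus strand) and the KRTAP gene Krtap8-1 (chr16:89487953-89488202, minus strand), capitals mark TATAAA, the letters of a core promoter box, which begins 29 bases before the start in both. In Krt31 they also mark CTTTGA, the core of the motif of the Wnt-responsive factor Lef1, 244 bases before the start.
Krt31: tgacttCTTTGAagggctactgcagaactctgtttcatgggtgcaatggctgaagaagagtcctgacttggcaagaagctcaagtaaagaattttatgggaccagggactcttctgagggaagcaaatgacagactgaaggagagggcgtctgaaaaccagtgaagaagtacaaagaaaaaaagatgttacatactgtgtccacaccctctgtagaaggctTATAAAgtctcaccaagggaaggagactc
Krtap8-1: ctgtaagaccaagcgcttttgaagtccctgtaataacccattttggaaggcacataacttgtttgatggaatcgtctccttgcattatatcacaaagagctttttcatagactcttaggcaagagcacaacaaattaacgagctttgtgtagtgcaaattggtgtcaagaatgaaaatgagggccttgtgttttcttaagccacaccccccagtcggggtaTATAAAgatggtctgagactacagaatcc
For the tyrosinase gene Tyr (chr7:87493513-87493762, minus strand), which encodes the enzyme that starts melanin synthesis, capitals mark CATGTG, the core of the motif bound by the melanocyte factor Mitf, 21 bases before the start.
Tyr: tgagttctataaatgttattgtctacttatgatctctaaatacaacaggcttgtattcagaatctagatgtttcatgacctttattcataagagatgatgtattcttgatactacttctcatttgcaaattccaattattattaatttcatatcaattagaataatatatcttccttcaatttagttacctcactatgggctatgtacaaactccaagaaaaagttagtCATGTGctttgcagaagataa
For 3 genes that the aryl hydrocarbon receptor (AHR) is known to activate, Cyp1a1 (chr9:57697363-57697612, plus strand), Ahrr (chr13:74292332-74292581, minus strand) and Cyp1b1 (chr17:79715062-79715311, minus strand), capitals mark GCGTG, the core of the AHR motif. It begins 54 bases before the start in Cyp1a1 and at 107, 82 and 27 bases in Ahrr, and lies on the opposite strand in Cyp1b1, 76 bases before the start.
Cyp1a1: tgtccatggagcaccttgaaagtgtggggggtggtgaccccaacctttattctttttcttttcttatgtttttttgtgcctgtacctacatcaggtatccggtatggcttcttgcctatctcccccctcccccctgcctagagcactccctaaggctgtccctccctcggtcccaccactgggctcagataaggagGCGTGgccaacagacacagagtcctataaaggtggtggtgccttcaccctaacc
Ahrr: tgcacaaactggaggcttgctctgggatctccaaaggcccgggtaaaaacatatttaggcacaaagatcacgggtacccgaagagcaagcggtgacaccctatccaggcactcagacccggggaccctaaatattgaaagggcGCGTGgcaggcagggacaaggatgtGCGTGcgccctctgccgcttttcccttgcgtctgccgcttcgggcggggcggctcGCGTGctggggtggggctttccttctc
Cyp1b1: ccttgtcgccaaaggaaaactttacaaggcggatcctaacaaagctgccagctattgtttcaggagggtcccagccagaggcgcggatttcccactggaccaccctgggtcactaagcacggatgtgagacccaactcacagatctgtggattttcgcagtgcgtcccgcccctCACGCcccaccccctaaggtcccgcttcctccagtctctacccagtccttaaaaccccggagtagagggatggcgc
With both strands searched in 250 bases, TATAAA stood in 12.9% of 27025 mouse promoters and in 46 of the 59 shaft keratin and KRTAP genes that matched the RefSeq table, of 71 in these lists. CTTTGA stood in 14% of all promoters and in 16 of those 59. GCGTG stood in 28% of all promoters and in 13 of 20 matched genes of the AHR, NRF2 and glutathione list, and CATGTG in 12.3% of all promoters and in 7 of 15 matched melanocyte genes, but also in 17 of the 59 shaft keratin and KRTAP genes. The marked matches do not overlap, and a match describes the sequence only.

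At day 28, 695 coding genes were at least 2-fold higher in the hairloss library (5.17% of those compared) and 764 were at least 2-fold lower (5.68%). The median difference over all compared genes was 0.02 and the median absolute difference 0.28. The lower genes reached further: 308 were 4-fold and 153 were 16-fold lower, against 118 and 17 that were higher by as much. Just inside the 2-fold limit, at absolute differences of 1 to 1.1, lay 230 genes, and just outside it, at 0.9 to 1, lay 302. Col3a1 and Col1a1, each with an exact 0, aside, the largest differences downward belonged to KRTAP genes and the largest upward to the stefins Cstdc5 (8.3 and 898 FPKM) and Stfa3 (45.9 and 3978 FPKM), which inhibit cysteine proteases, and the wound keratin Krt6b (0.17 and 79.2 FPKM).

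**Figure D1:**
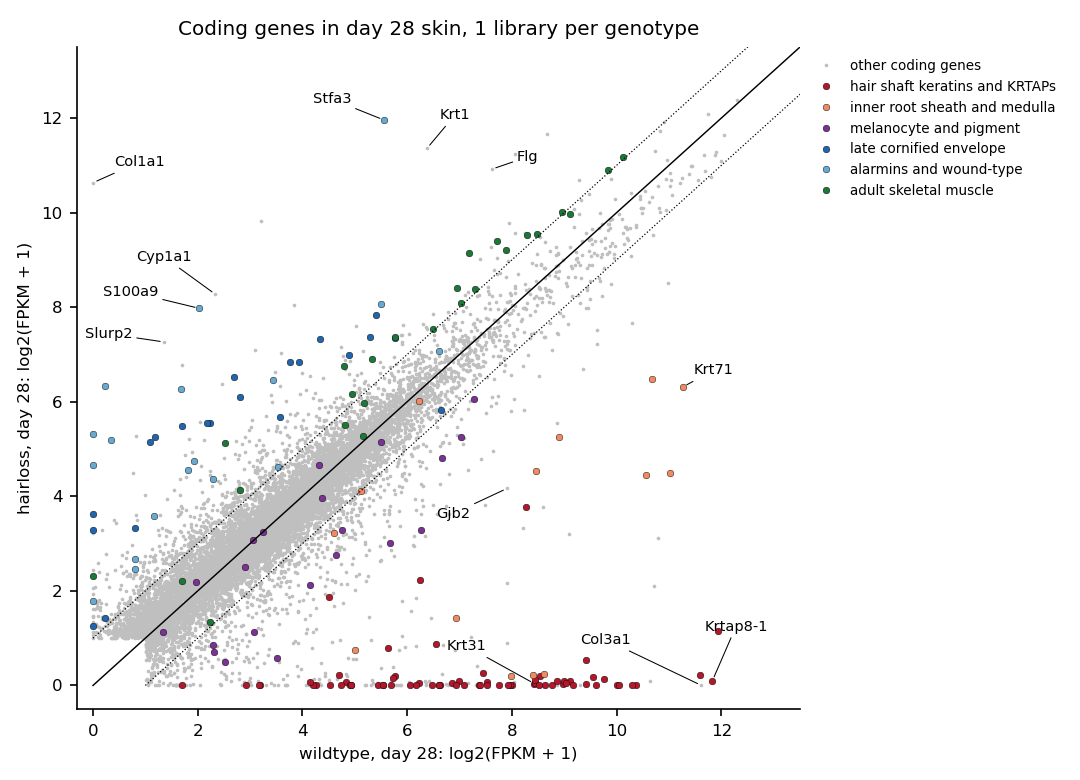
Level of each coding gene in the wildtype (x axis) and hairloss library (y axis) of day 28, both as log2(FPKM + 1). Points are genes, the solid line marks equal levels and the dotted lines a 2-fold difference. Hair shaft keratins and KRTAPs (dark red) all lie below the lower dotted line and most of them along the bottom edge, with Krt31 at 343 and 0.0273 FPKM, while late cornified envelope genes and alarmins (blue) lie above the upper dotted line with few exceptions.

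The hair shaft genes were the lowest group in the hairloss library. All 15 matched shaft keratins and 55 of 55 KRTAPs compared were at least 2-fold lower, where 5.68% of all compared genes were. The type II shaft keratin Krt85 was not matched, so no value for it is given here. The keratins were not reduced evenly. Krt35, a keratin known from the youngest shaft cells just above the matrix, still stood at 12.7 FPKM (309 in wildtype), and the cuticle keratin Krt32 at 74.3 and 3.69 FPKM. Krt84 stood at 21.8 and 2.65 FPKM. The other 12 shaft keratins were below 0.5 FPKM in the hairloss library. Among them, the cortex keratins Krt31, Krt33a and Krt86 stood at 343 and 0.0273, 681 and 0.0274 and 504 and 0.0211 FPKM, and Krt34 at 393 FPKM in wildtype and listed at 0 in hairloss skin. By the estimated depth, 6 of 15 shaft keratins and 48 of 56 KRTAPs, with Krtap13, under 1 FPKM in both libraries, included, were at or under 3 fragments in the hairloss library. The KRTAPs comprise a cysteine-rich class that forms disulfide bridges and a class rich in glycine and tyrosine. The cysteine-rich class had a median difference of -6.47 over 39 genes and the glycine-tyrosine-rich class -8.97 over 16. Krtap22-2 was the highest KRTAP left in the hairloss library, at 1.23 FPKM against 3914 FPKM. Keratin and KRTAP genes together made up 8.09% of the coding FPKM of the wildtype library and 2.73% of that of the hairloss library. Members of the KRTAP, Lce, Sprr2, stefin and Krt6 families are near copies of each other, and the sources used here do not say how reads were shared among them. In whole skin, fewer cells of a type and less RNA per cell cannot be told apart.

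Proteins of the inner root sheath and medulla were lower in 13 of 14 genes, with a median difference of -4.60, but most stayed far above the detection floor. The sheath keratins Krt71, Krt25 and Krt28 stood at 2466 and 78.7, 1643 and 87.7 and 478 and 37.2 FPKM, and Krt73 at 351 and 22.3 FPKM. Krt72 and Krt26 were exceptions, at 392 and 0.174 and 251 and 0.144 FPKM, so that keratins of the same sheath spread over a wider range in the hairloss library than in wildtype skin. Trichohyalin (Tchh), which hardens the sheath and medulla, stood at 2076 and 21.4 FPKM and Tchhl1 at 337 and 0.172 FPKM. Padi3 and Padi1, enzymes that convert arginine of trichohyalin to citrulline, stood at 121 and 1.68 and 31.1 and 0.682 FPKM. The protease gene Ctsc was the 1 member within 2-fold, at 73.7 and 64 FPKM. Krt75, the keratin of the companion layer beside the sheath, stood at 179 and 13 FPKM, whereas Krt17, shared by the outer root sheath and wounded epidermis, was level at 812 and 816 FPKM.

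Of the transcription factors of the hair matrix, 13 of 23 were at least 2-fold lower and 1 was higher, with a median of -1.09. Foxn1, the factor lost in nude mice, stood at 17.4 and 1.19 FPKM, and Hoxc13, an activator of hair keratin genes, at 32.7 and 4.13 FPKM. Msx2, Sp6 and Dlx3, which act in matrix cells as they begin to form the shaft, stood at 35.9 and 3.64, 52.7 and 5.69 and 97.8 and 18.1 FPKM. Lef1, the Wnt effector of the precortex, stood at 30.1 and 5.5 FPKM. Bcl11b, a factor of basal keratinocytes and follicles, was the member that was higher, at 7.58 and 21.8 FPKM, and Trps1 and Runx1 were nearly level at 25.5 and 26.2 and 10.7 and 12.1 FPKM. Their differences ran from -3.07 to 1.41, and those of the shaft keratins from -9.37 to -2.65. The ranges overlap, and on this scale the wildtype level limits how far down a difference can reach.

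Structural and metabolic genes of the matrix and cortex were lower in 18 of 22 members, with a median of -2.24. Prr9 stood at 1666 and 3.28 FPKM and the cuticle calcium-binding gene S100a3 at 1767 and 7.67 FPKM. The membrane receptor gene Gprc5d of the cortex stood at 261 and 0.0543 FPKM, Vsig8 at 160.3 and 0.322 FPKM and Crym, which encodes a thyroid hormone-binding protein, at 238 and 0.875 FPKM. Dsg4, the desmosomal cadherin of the shaft, stood at 61.3 and 0.75 FPKM. Csta1, Aldh3b2, Fabp4 and Dlk2 were the 4 members within 2-fold of equality on this scale. Fabp4 also stands in the list of white fat genes, and the part of fat in its value was not tested.

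The signalling pathways of the follicle differed less than the shaft. In the BMP group 7 of 20 members were lower and 2 higher, with a median of -0.58. The decoy receptor gene Bambi stood at 14 and 0.865 FPKM, the ligand gene Bmp8a at 5.94 and 0.0976 FPKM, the inhibitory Smad genes Smad6 and Smad7 at 7.47 and 1.19 and 11.5 and 4.34 FPKM, and the target gene Id3 at 75 and 23.8 FPKM. The secreted BMP antagonist Grem1 was among those that were higher, at 2.21 and 11.8 FPKM. Bmp4 stood at 13.7 and 8.02 FPKM and Bmp7 at 14.2 and 11.8 FPKM, both within 2-fold. The target gene Id1 (58.7 and 28.6 FPKM) and the ligand gene Bmp2 (6.52 and 2.75 FPKM) were also lower, while the targets Id2 (47.3 and 29 FPKM) and Id4 (20.8 and 12.5 FPKM) and the receptors Bmpr1a (37.9 and 27.1 FPKM) and Bmpr2 (21.3 and 20.9 FPKM) were within 2-fold.

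Of 41 genes compared in the Wnt list, 5 were higher and 3 lower, and the median difference was -0.07. The lower ones were Lef1 and the ligands Wnt11 (15.9 and 2.85 FPKM) and Wnt3a (3.85 and 1.03 FPKM). Among the higher ones were the inhibitor gene Dkk2 at 2.17 and 8.65 FPKM, Dkkl1 at 12.5 and 37.3 FPKM, Wnt16 at 0.706 and 3.02 FPKM, the co-receptor Lrp4 at 8.48 and 18.4 FPKM and Eda2r at 1.25 and 3.55 FPKM. Eda2r is an ectodysplasin receptor rather than a Wnt gene, and was counted as a member of the list. The ligands Wnt10a and Wnt3 were level, at 6.64 and 6.42 and 6.6 and 6.58 FPKM. In the Hedgehog pathway, which drives growth of the follicle, 1 of 13 members was higher and 0 lower. The ligand gene Shh stood at 3.61 and 3.27 FPKM, its receptor and target Ptch1 at 20.8 and 40.2 FPKM, the target Gli1 at 8.63 and 16.8 FPKM and the co-receptor Cdon at 7.09 and 17.7 FPKM. The median of the Hedgehog genes was 0.34, above the 0.02 of all genes compared.

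Among 21 FGF, IGF and related genes, 3 were higher and 2 lower. Fgf5, the signal that ends the growth phase, stood at 2.74 and 0.0172 FPKM and Fgf22 at 16.7 and 1.82 FPKM. Igfbp3, which binds insulin-like growth factors, stood at 18.2 and 51.1 FPKM, Tgfb3 at 5.84 and 16.1 FPKM and Fgfr1 at 21.9 and 45.1 FPKM. None of 14 Notch pathway genes passed the rule in either direction, where 10.9% of all compared genes did. Jag1 (40.5 and 20.6 FPKM) and Notch1 (54.3 and 30.6 FPKM) stood close to it. In the EGF family 3 of 16 were lower, the ligands Tgfa (19.1 and 6.8 FPKM), Areg (5.86 and 2.0 FPKM) and Btc (5.77 and 2.16 FPKM), and 3 were higher, the ligands Epgn (2.25 and 12.5 FPKM), Ereg (2.84 and 7.57 FPKM) and Nrg4 (1.83 and 5.47 FPKM). Ligands of this family thus stood on both sides, while the receptors Egfr (61 and 39.6 FPKM) and Erbb2 (25 and 21.6 FPKM) were within 2-fold.

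Listed cell cycle and DNA replication genes were close to equal, while most replication-dependent histone genes were lower (given under other observations). None of the 35 cell cycle and DNA replication genes was 2-fold different, where 10.9% of all compared genes were. Their median was -0.01, and their differences ran from -0.57 to 0.54. At 16.4 and 18.6 FPKM, the median level of these genes stood above that of both genotypes at days 16 (6.14 and 12.8 FPKM) and 19 (4.04 and 8.85 FPKM). Of 15 stem cell and bulge genes 4 were higher and 1 was lower, and their median was 0.37. Lgr5 and Krt15, markers of follicle stem cells, stood at 14.8 and 11.1 and 350.2 and 377 FPKM and Cd34 at 73.7 and 95.6 FPKM, all within 2-fold. The higher ones were Lgr6, a marker of stem cells of the upper follicle, at 3.58 and 11 FPKM, Nfatc1 at 5.84 and 14.2 FPKM, the hemidesmosomal collagen Col17a1 at 52.8 and 122 FPKM and the integrin Itga6 at 35.2 and 76.1 FPKM. Foxc1 was the lower one, at 11 and 4.37 FPKM. In the dermal papilla list, 20 of 22 genes were within 2-fold and the median was 0.01. Lef1 was lower and the leptin receptor Lepr was higher, at 8.32 and 27.5 FPKM.

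Pigment genes were lower in 13 of 21 members, with a median of -1.46. The melanosome genes Mlana, Tyrp1 and Oca2 stood at 75.4 and 8.76, 101 and 26.9 and 10.5 and 0.493 FPKM. Tyr stood at 23.8 and 5.78 FPKM, Trpm1, a channel gene of melanocytes, at 50.1 and 7.07 FPKM, and the melanosomal transporters Slc24a5 and Slc45a2 at 16.7 and 3.38 and 7.41 and 1.19 FPKM. Sox10 and Kit, which mark melanocytes regardless of pigment synthesis but are also expressed by Schwann cells and mast cells respectively, were level at 2.93 and 3.58 and 8.49 and 8.45 FPKM. Mast cell genes were higher in the same library (below), and the part of mast cells in the Kit value was not tested. Tyrp1 stood between 4.31 and 8.56 FPKM in the 6 libraries of the other ages, so the hairloss library of day 28 lay above all of them and below the wildtype library of its own age.

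Of 62 compared genes whose mutation causes hair loss or hair defects in mice, 22 were lower, 5 were higher and 35 were within 2-fold. The lower ones included genes of the shaft and sheath already named and also the palmitoyl transferases Zdhhc13 (31.2 and 7.56 FPKM) and Zdhhc21 (34.1 and 12.4 FPKM), the protease pair St14 (58.6 and 20.7 FPKM) and Prss8 (27.9 and 11.6 FPKM), the lipid receptor Lpar6 (8.23 and 3.54 FPKM) and the polyamine enzyme Odc1 (80.6 and 23.4 FPKM). The higher ones were the sebaceous lipid genes Scd1 (247 and 883 FPKM), Elovl3 (43.8 and 114 FPKM) and Soat1 (32.9 and 76.4 FPKM), with Bcl11b and Lipk (2.16 and 15.3 FPKM). Genes that were close to level included hairless (Hr, 48.7 and 60.8 FPKM), the vitamin D receptor Vdr (45.8 and 39.3 FPKM), Sharpin (25.4 and 24.8 FPKM), Ctsl (267 and 259.6 FPKM), Gsdma3 (3.6 and 4.61 FPKM), Cdsn (140.3 and 127 FPKM) and Dsp (367 and 345 FPKM). A level says nothing of whether a gene carries the mutation.

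Cell contacts differed by type. Gap and tight junction genes were lower in 7 of 13 members, with a median of -1.05, and 0 were higher. The connexins Gjb2 and Gjb6 stood at 239 and 17 and 31.4 and 3.96 FPKM and Gja1 at 419.7 and 202 FPKM, while Gjb5 was level at 15.6 and 14.8 FPKM. The claudins Cldn4, Cldn3 and Cldn8, which seal tight junctions, stood at 77 and 14.2, 9.21 and 0.702 and 11.2 and 2.08 FPKM and Cldn1 at 98.4 and 54.4 FPKM. Of 19 desmosome and adherens junction genes, Dsg4 and Dsc2 (23 and 10.3 FPKM) were lower and the other 17 were within 2-fold. Simple epithelial keratins were low in both libraries and lower in the hairloss library: Krt18 stood at 4.61 and 0.448, Krt8 at 2.42 and 0.111 and Krt20 at 2.38 and 0.276 FPKM. Krt18, Krt8 and Krt20 are also Merkel cell markers, but 2 other genes of that list were higher, Piezo2 (1.05 and 3.32 FPKM) and Chga (0.0898 and 1.35 FPKM).

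**Figure D2:**
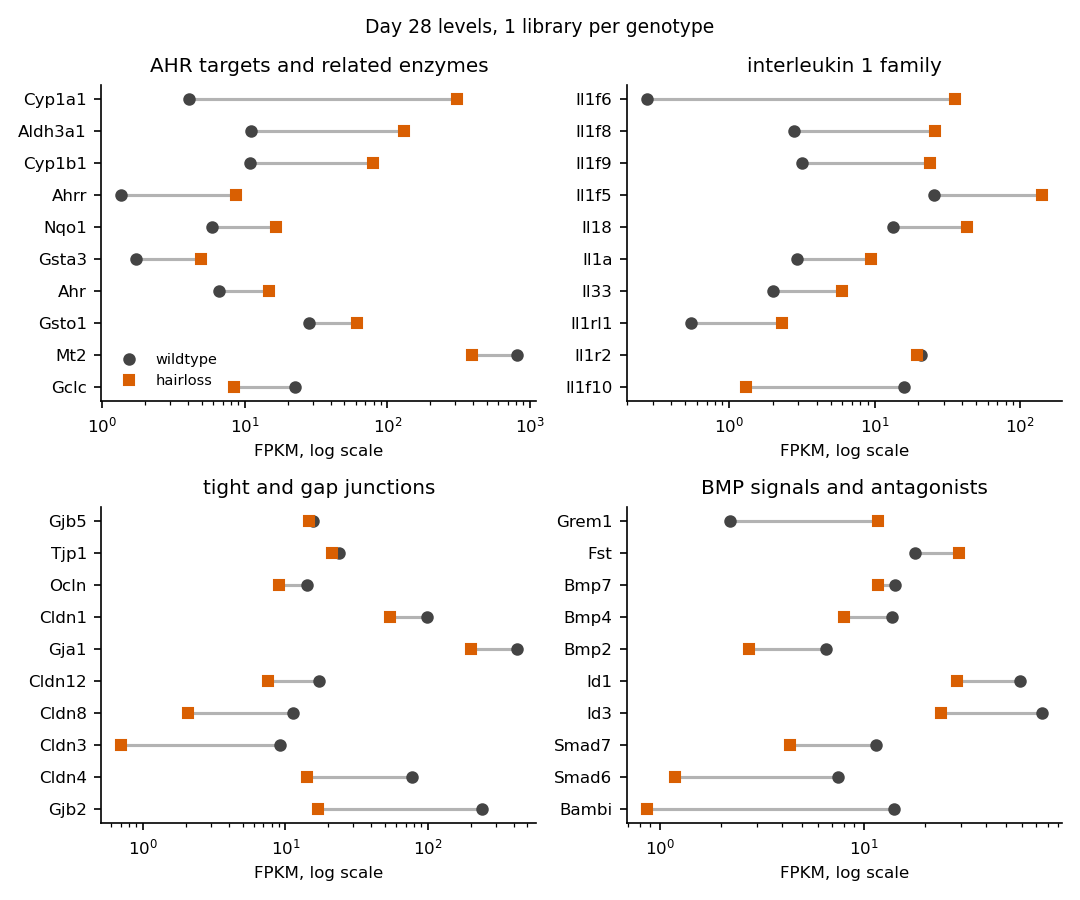
Day 28 level in FPKM (x axis, log scale) of 10 genes in each of 4 groups, with a circle for the wildtype and a square for the hairloss library. The squares of Cyp1a1 (308 FPKM) and Il1f6 (35.8 FPKM) lie far right of their circles, those of Gjb2 (17 FPKM) and Bambi (0.865 FPKM) far left, and Grem1 and Fst are the BMP genes right of their circles.

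Epidermal keratins were higher in the hairloss library in 5 of 11 members and lower in 1, with larger differences in the suprabasal than in the basal pair. Krt1 and Krt10, the pair of the spinous layer, stood at 82.1 and 2623 and 406 and 3251 FPKM, and the basal pair Krt5 and Krt14 at 712 and 1334 and 619.7 and 1658 FPKM. Krt78, Krt79 and Krt77 stood at 5.61 and 35, 192 and 614 and 373 and 481 FPKM, and Krt23 was lower, at 135 and 36.6 FPKM. Of 15 Lce1 and Lce6 genes, 14 were at least 2-fold higher (5.17% of all genes compared were), and the exception was Lce1m at 99.2 and 55.4 FPKM. Lce1j and Lce1f stood at 1.27 and 37.4 and 5.48 and 91.3 FPKM. All 6 Lce3 genes were higher, of which Lce3b, Lce3e and Lce3f were listed at 0 in the wildtype library. All but Lce3c were under 1 FPKM in that library and were compared through their hairloss value only. The largest Lce3 level was that of Lce3c, at 1.13 and 34.4 FPKM.

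Genes of the cornified envelope were split. Filaggrin (Flg) and repetin (Rptn), fused-type S100 proteins of the epidermal granular layer, stood at 195 and 1932 and 13.2 and 262 FPKM and Hrnr at 6.44 and 29.7 FPKM, while Crnn, Tchh and Tchhl1 of the same family were lower, Crnn at 239.9 and 3.46 FPKM. Of 10 small proline-rich genes compared 8 were higher, among them Sprr2h (3.86 and 19.6 FPKM) and Sprr2d (listed at 0 in the wildtype library and at 39 FPKM in the other). Most of the 8 reached 1 FPKM in the hairloss library only, and another 4 coding members were below 1 FPKM in both. Sprr1a and Sprr4 went the other way, at 657 and 102 and 79.8 and 7.95 FPKM, and the summed level of the 10 genes was 752 and 207 FPKM. In the list of other envelope genes, Calm4, Il1f5 and Kprp stood at 264 and 2426, 25.6 and 142 and 17.4 and 67 FPKM, the protease Casp14 at 27.2 and 103 FPKM, and involucrin (Ivl) and Cnfn were level at 81.7 and 82.4 and 119 and 120.3 FPKM. Of the crosslinking enzymes, Padi4, Tgm3 and Tgm1 stood at 26.3 and 2.35, 23.4 and 8.28 and 50.2 and 20.6 FPKM and were lower with Padi1 and Padi3, while Padi2 was higher, at 0.603 and 4.13 FPKM.

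Lipid enzymes of the barrier were higher in 8 of 30 genes and lower in 1, with a median of 0.52. The lipoxygenase Alox12b and the fatty acid elongases Elovl4 and Elovl6 stood at 5.57 and 28.8, 167 and 517 and 59.5 and 195 FPKM, and the ceramide desaturase Degs2 at 1.43 and 11.2 FPKM. The lipases Lipk and Lipn stood at 2.16 and 15.3 and 4.36 and 18.6 FPKM, and the sphingomyelinase Smpd1 was lower, at 43.5 and 21.1 FPKM. Among proteases and their inhibitors, 9 of 22 were higher and 5 lower. The kallikreins Klk8 and Klk9 stood at 29.1 and 115 and 1.92 and 16.5 FPKM but Klk10 at 70.1 and 14.3 FPKM. The serpin genes Serpinb12 and Serpinb3b stood at 4.49 and 82.3 and 0.689 and 21.4 FPKM, whereas the protease inhibitor Spint1 was lower with its target St14, at 52.9 and 16.6 FPKM. Of 26 transcription factors of epidermal differentiation, 3 were higher and 4 lower. Pou2f3, Grhl3 and Ehf stood at 8.25 and 26.8, 11.2 and 34 and 8.85 and 19.7 FPKM, and Elf5 and Hopx at 25.3 and 0.95 and 106 and 38.6 FPKM. Of 23 hemidesmosome and basement membrane genes 6 were higher and 0 lower, with Col7a1, the anchoring fibril collagen, at 7.62 and 32.9 FPKM and the integrin Itgb4 at 13.9 and 31.9 FPKM.

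Alarmin and wound-type genes were higher in 17 of 18 compared members, with a median of 2.78, and another 5 were below 1 FPKM in both libraries. Some of the 17, such as Krt6b, Il1f6 and Defb14, reached 1 FPKM in the hairloss library only. The filter admitted these through their high value, so the count follows in part from it. S100a9 and S100a8, calcium-binding alarmins of keratinocytes and neutrophils, stood at 3.07 and 251 and 44.4 and 266 FPKM, the wound keratin Krt16 at 9.77 and 87.4 FPKM and the antimicrobial gene Lcn2 at 1.24 and 11.1 FPKM. Krt6a was the exception, at 96.8 and 134 FPKM, a difference of 0.46, beside 6.10 for its neighbour Krt6b. The neutrophil list had 17 genes, of which 4 reached 1 FPKM. S100a8, S100a9 and Cxcr2 (0.0822 and 2.5 FPKM) were higher and Il1r2 was level, and 13 others, the defining granule and surface genes Ly6g, Mpo, Elane and Csf3r among them, were below 1 FPKM in both libraries. Of the antimicrobial peptides, Defb14 had a listed 0 in wildtype skin and 24.5 FPKM in hairloss skin, while Defb8 was listed at 52.2 FPKM in the wildtype library of day 28 and at 0 in the other 7 libraries. Slurp1 and Slurp2, secreted Ly6-type proteins of keratinocytes, stood at 3.36 and 35.6 FPKM and 1.57 and 152 FPKM, while Ly6g6d was lower, at 102 and 0.80 FPKM.

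In the interleukin 1 family 8 of 17 genes were higher and 1 was lower. The agonists of the receptor Il1rl2 were among the highest: Il1f6 stood at 0.272 and 35.8 FPKM, Il1f8 at 2.8 and 25.9 FPKM and Il1f9 at 3.19 and 24.1 FPKM. Il1f5, the antagonist of the same receptor, stood at 25.6 and 142 FPKM. Il1a and Il18 stood at 2.93 and 9.46 and 13.5 and 42.9 FPKM, the alarm cytokine Il33 at 2.01 and 5.95 FPKM and its receptor Il1rl1 at 0.545 and 2.3 FPKM. Il1f10 was the lower one, at 16 and 1.3 FPKM, and Il1b was within 2-fold at 1.17 and 1.52 FPKM. Of 23 chemokines compared 5 were higher, led by Ccl20, which attracts Ccr6-bearing cells, at 0.774 and 37.5 FPKM and the eosinophil attractant Ccl11 at 2.41 and 20.2 FPKM. Cxcl14, a chemokine of resting skin, was lower, at 53.5 and 15.5 FPKM. None of 18 interferon-induced genes passed the rule, where 10.9% of all compared genes did in either direction.

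Genes that AHR is known to activate were higher to different degrees. Cyp1a1, which oxidises AHR ligands, stood at 4.05 and 308 FPKM, Cyp1b1 at 10.9 and 79.5 FPKM, the aldehyde dehydrogenase Aldh3a1 at 11.1 and 130.4 FPKM, the AHR repressor gene Ahrr at 1.36 and 8.71 FPKM, Nqo1 at 5.86 and 16.6 FPKM and the receptor gene Ahr itself at 6.59 and 14.7 FPKM. Over the whole list of AHR, NRF2 and glutathione genes, 8 of 24 were higher and 2 lower, and the median difference was 0.20. Gclc, which starts glutathione synthesis, and the metallothionein Mt2 were the lower ones, at 22.6 and 8.45 and 805 and 390.1 FPKM. At day 16, Cyp1a1 stood at 37.2 and 139.9 FPKM and at day 19 at 105 and 88 FPKM, so at day 28 the wildtype library stood below the wildtype libraries of those days, and the hairloss library was the highest of the 8. Aldh3a1 stood at 32.7 and 69.1 FPKM on day 16 and at 67.4 and 55.3 FPKM on day 19, and the hairloss library of day 28 was again the highest of the 8.

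Retinoid genes stood on both sides. Stra6, the retinol uptake receptor, and Aldh1a3, which makes retinoic acid, stood at 13.4 and 0.927 and 27.6 and 4.3 FPKM. Cyp26b1, which breaks retinoic acid down, and the retinol-binding gene Rbp2 stood at 6.87 and 35.1 and 6.93 and 41.3 FPKM. These 4 were the only ones of 21 compared retinoid and vitamin D genes past 2-fold. At days 16 and 19 Aldh1a3 was higher in the hairloss library instead, at 5.64 and 53.7 FPKM and at 2.94 and 42.6 FPKM.

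Sebaceous lipid genes were higher in 8 of 22 members and lower in 4, with a median of 0.71. Scd1, Fa2h and Cidea stood at 247 and 883, 17.8 and 71.7 and 25.2 and 67.5 FPKM and the regulator Pparg at 7.58 and 22.6 FPKM, whereas the melanocortin receptor of sebocytes, Mc5r, stood at 6.22 and 0.947 FPKM and Scd3 at 41.3 and 19.4 FPKM. The other 10 members were within 2-fold, Awat2 among them at 15.5 and 15.3 FPKM. Scd1 and Pparg also stand in the list of white fat genes and Cidea in that of brown fat genes. The part of fat in their values was not tested. Dermal matrix genes were higher in 9 of 33 members and lower in 2, the collagens with an exact 0 included. The elastic fibre genes Eln, Fbln5 and Mfap4 stood at 31.4 and 192, 13.4 and 51.5 and 89.3 and 230.3 FPKM. Col1a2, the partner chain of Col1a1 with no 0, had a lower value in hairloss skin (3575 and 1731 FPKM).

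Genes of skeletal muscle were mostly higher, and most genes of fat, vessels and nerves were within 2-fold. Of 25 adult skeletal muscle genes 19 were higher and 0 lower. Their median difference was 1.09 and their levels summed to 5089 and 11322 FPKM. The fast myosins Myh4 and Myh2 stood at 144 and 567 and 4.74 and 33.7 FPKM. Actc1, the cardiac actin that regenerating and fetal muscle also makes, stood at 3.13 and 46.8 FPKM. White fat genes were higher in 8 of 25 and lower in 0, with Cfd at 266 and 752 FPKM and Slc2a4, the insulin-responsive glucose transporter, at 5.74 and 16 FPKM. Of 19 endothelial genes 3 were higher (median 0.76), and of 15 Schwann cell genes 4 were higher (median 0.72). The part of muscle, fat, vessel and nerve tissue in the dermal values was not tested.

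Mast cell genes were higher in 9 of 11 members, with a median of 1.70. The proteases Cma1, Mcpt4 and Cpa3 stood at 19.9 and 89.3, 27 and 117 and 15.7 and 75.5 FPKM, and the histamine-forming enzyme Hdc and the receptor chain Ms4a2 at 0.861 and 5.06 and 0.552 and 5.44 FPKM. For Cma1 and Mcpt4 the wildtype library of day 28 was the lowest of the 8: Cma1 ranged from 38.4 to 362 FPKM over the other ages and Mcpt4 from 45.4 to 118 FPKM. The hairloss values of day 28 lay inside the range of the other ages for both. None of 19 macrophage genes and none of 7 T cell genes compared was 2-fold different, with medians of 0.35 and 0.70. Of all compared genes 10.9% were, so for lists this short 0 is near that share. In the B and plasma cell list 0 of 7 matched coding genes reached 1 FPKM. Of 9 epidermal gamma-delta T cell genes, the granzyme Gzmc was higher, at 2.14 and 19.5 FPKM, Cd7 was lower, at 3.46 and 0.957 FPKM, and 7 were within 2-fold.

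Hox genes, which keep a record of position along the body axes in skin fibroblasts and other cells, were lower in 10 of 25 compared members and higher in 0, with a median of -0.71. Hoxc13, counted above among the matrix factors, had the largest difference. Hoxa7, Hoxa9 and Hoxb7 stood at 15.2 and 2.5, 5.29 and 0.753 and 11 and 3.32 FPKM, and Hoxc10 at 1.99 FPKM in wildtype and listed at 0 in hairloss skin. Hoxc8 and Hoxc5 were within 2-fold and slightly higher, at 4.73 and 5.13 and 1.93 and 2.34 FPKM, and Hoxc4 stood at 1.3 and 2.89 FPKM. Levels of these genes were low, with list medians of 2.85 and 1.48 FPKM. Hoxa7 also varied between ages, from 7.29 and 4.81 FPKM on day 0 to 0.635 and 0.243 FPKM on day 16 and 2.04 and 3.06 FPKM on day 19, so the wildtype library of day 28 was the highest of the 8.

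**Figure D3:**
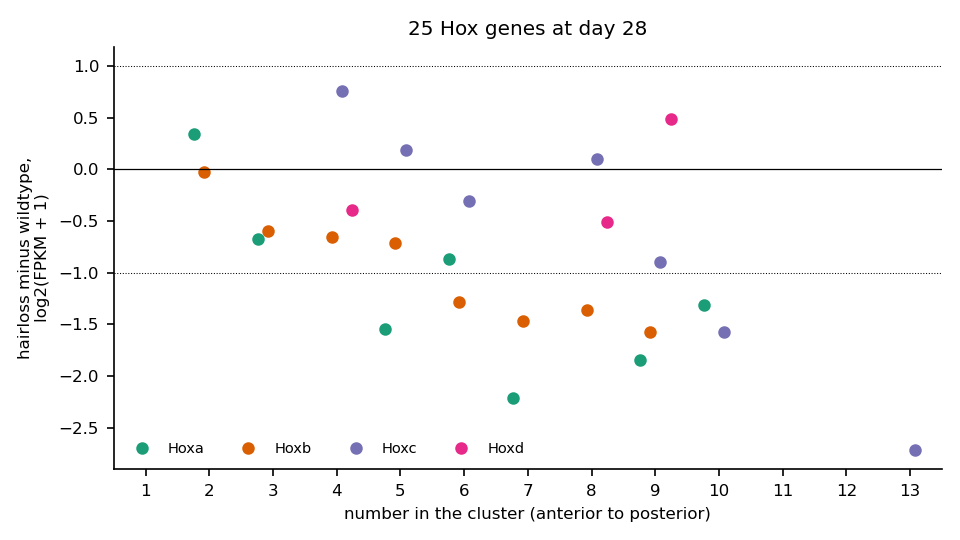
Difference at day 28 of 25 Hox genes, hairloss minus wildtype on the log2(FPKM + 1) scale (y axis), by the number of the gene in its cluster (x axis), with 1 colour per cluster. Dotted lines mark a 2-fold difference. No gene reaches the upper line, and the 10 at or under the lower line are of the a, b and c clusters, with Hoxc13 lowest at -2.72.

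The other ages showed which of these differences were shared. By the same rule 709 genes were higher and 667 lower at day 16 (5.27% and 4.96% of those compared, 10.2% together), 798 and 718 at day 19 (5.83% and 5.25%, 11.1% together), and 66 and 65 at day 0 (0.499% and 0.491%, 0.99% together), against 10.9% together at day 28. Of the 764 genes lower at day 28, 408 were also at least 2-fold lower at day 16 (53.4% of the day 28 genes and 61.2% of the day 16 genes), and 11 were higher. At day 19, 68 of them were lower (8.90% and 9.47%) and 224 were higher (29.3% and 28.1%). Of the 695 genes higher at day 28, 223 were higher at day 16 (32.1% and 31.5%) and 135 at day 19 (19.4% and 16.9%), against 23 and 90 that were lower. Of the genes past the rule at day 0, 28 of the higher and 31 of the lower ones matched the direction of day 28. There were 351 of the 695 higher genes (50.5%) and 256 of the 764 lower genes (33.5%) that stayed within 2-fold at each of the other 3 ages, against 83.8% of all genes compared. The ages share no library, and sex markers differ between them as given above.

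**Figure D4:**
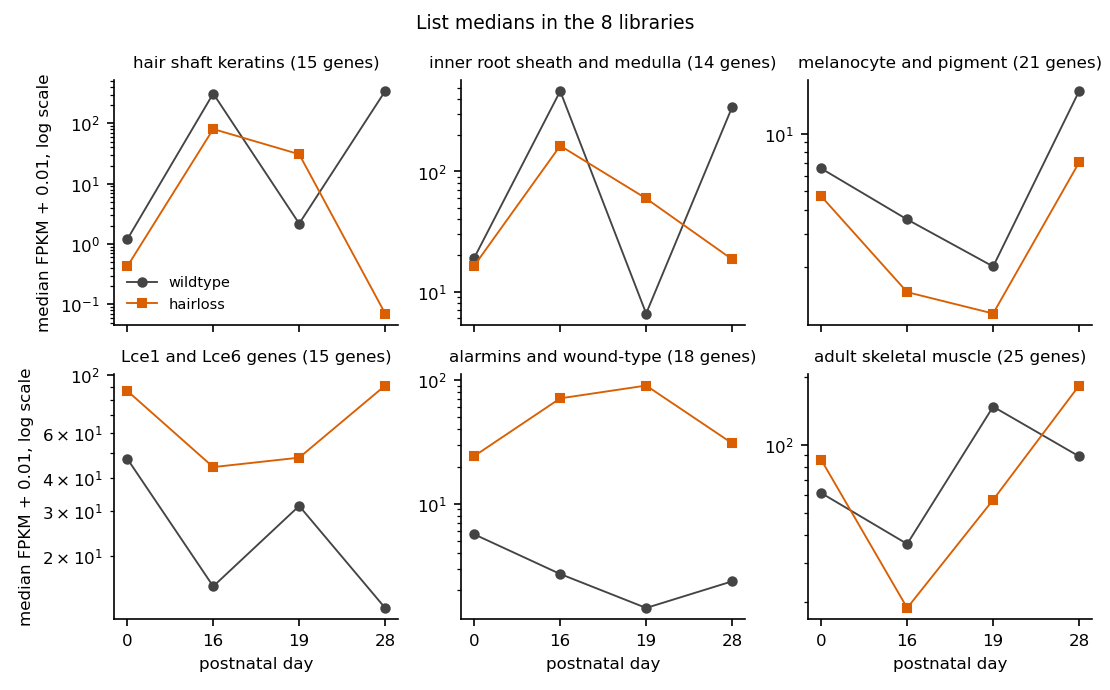
Median FPKM plus 0.01 (y axis, log scale) of 6 gene lists at postnatal days 0, 16, 19 and 28 (x axis, evenly spaced), with 1 library per point. In the hairloss library of day 28 the shaft keratin median was 0.0605 FPKM, below the other 7 libraries, while the alarmin median of 30.8 FPKM lay between the hairloss medians of days 0 and 16 (24.3 and 71.0 FPKM).

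By median, shaft keratins and KRTAPs of the hairloss library at day 28 stood below the wildtype library of day 19. They were also low in that wildtype library. The shaft keratin median was 0.0605 FPKM against 2.17 FPKM in that library, and 313 FPKM in the wildtype library of day 16. For the inner root sheath list the order was reversed, with 18.5 FPKM in the hairloss library of day 28 and 6.55 FPKM in the wildtype library of day 19. Krt71 stood at 78.7 and 28.6 FPKM in these libraries, while Krt31 stood at 0.0273 and 0.915 FPKM. In the hairloss library of day 28 the sheath keratins Krt71 and Krt25 were near their day 0 levels (107 and 117 FPKM in hairloss skin). Sheath and shaft genes overlapped in this library. The sheath genes Krt72, Tchhl1 and Krt26 stood at 0.174, 0.172 and 0.144 FPKM, and the shaft keratins Krt35 and Krt32 at 12.7 and 3.69 FPKM.

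The libraries of day 28 were also ranked among the 8. The higher and lower genes were chosen by the day 28 difference, so shares above those of all genes follow from the rule. This ranking does not tell which library a difference comes from. Among the 695 higher genes, the wildtype library of day 28 was the lowest of the 8 in 310 (44.6%) and the hairloss library was the highest in 219 (31.5%). Among the 764 lower genes, the wildtype library was the highest of the 8 in 339 (44.4%) and the hairloss library the lowest in 220 (28.8%). Over all compared genes the wildtype library of day 28 was the lowest in 13.8% and the highest in 14.1%, and the hairloss library in 6.64% and 7.95%. Krt1 was low in wildtype skin at both ages of high shaft keratin, with 76.4 FPKM in the wildtype library of day 16, 82.1 FPKM in that of day 28 and between 1914 and 3249 FPKM in the 4 hairloss libraries.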

How the data were processed

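Total RNA of mouse skin was isolated with RNeasy columns and made into TruSeq libraries, per the labels' protocols. Per the submitters' processing notes, the build was mm10 and the tools included Cutadapt and Cuffdiff, with no versions given. Each deposited file lists a value for every Ensembl gene, and its header names no unit. The deposited values were read as FPKM, which was inferred from their range and from Cuffdiff. Counts were not used here, so there was no count test.

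Gene types come from GENCODE M21 on the same build, and symbols from the files (21795 genes) or GENCODE (33471), with 152 left without. Promoters come from RefSeq (GRCm38.p6). The 2 libraries of day 28 were compared as log2(FPKM + 1) with a rule of at least 2-fold and at least 1 FPKM in either library. Depth was estimated from 10706 genes with a single transcript of more than 1000 bases. Suspected failed estimates are coding genes listed at 0 in 1 library of day 28 whose values above 0 in the 8 libraries are all at least 5 FPKM.

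The members, the 79 gene lists and the rules were chosen with earlier results of these data known. Genes were named by rule: the 25 largest differences each way, and of each list every member where 10 or fewer were measured, otherwise the 8 largest each way and up to 4 smallest. Sex-linked genes, hair loss genes and members listed at 0 could always be named, and predicted genes were only counted. Some genes the rule would name are not reported here. Alternatives changed the pseudocount (0.1 or 5), the minimum (none or 5 FPKM), the fold (4), the scaling, and the genes included. Python 3.11.15, numpy 2.4.6, pandas 2.3.3 and matplotlib 3.10.9 were used.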

Additional observations from a re-analysis of the deposited data

Results flagged for a closer look

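At day 28 and day 19 the genotypes differed in opposite directions in 7 gene lists, given here as median differences, hairloss minus wildtype on the log2(FPKM + 1) scale. The type I shaft keratins had a median of -4.93 at day 28 and 3.08 at day 19, and the type II shaft keratins -8.61 and 3.48. The inner root sheath and medulla proteins had -4.60 and 3.6. The cysteine-rich KRTAPs had -6.47 and 2.29, and the glycine-tyrosine-rich KRTAPs -8.97 and 2.65. The matrix and cortex effectors had -2.24 and 1.5. Adult skeletal muscle genes went the other way, with 1.09 at day 28 and -1.09 at day 19. With 1 library per genotype and age, the difference between the ages was not tested.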

How the results depend on the processing

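Of the counts and shares the report turns on, 128 of 148 alternative values were called unchanged. A count was unchanged within 1.5 times the reported one, and a share when equal to it at 3 digits. This rule had no call for a change of direction in a count or share. With a pseudocount of 0.1 the higher genes numbered 1107 and the lower ones 937, so that more were higher than lower, and with 5 they numbered 287 higher and 475 lower, with 4 mast cell genes and 4 AHR list genes higher and 2 Hox genes lower. A 4-fold rule gave 118 higher and 308 lower, and left 8 matrix factors, 5 pigment genes, 4 junction genes and 2 Hox genes lower, and 2 muscle, 4 mast cell and 4 AHR list genes higher. With a minimum of 5 FPKM, 4 Hox genes were lower. The keratin and KRTAP share was 8.12% and 2.74% without suspected failed estimates, and 8.29% and 2.81% without X and Y genes. The median of the Merkel cell list changed sign with no filter, to 0.0454, and that of the sex-linked list without suspected failed estimates, to 0.20. Scaling without keratins and KRTAPs shifted the median of all genes to 0.13 and gave 896 higher and 679 lower genes. Under that scaling 6 of 77 list medians changed sign, all of them under 0.2 in size, the Wnt, EGF and cell cycle lists among them. A minimum of 5 FPKM changed the sign of 7 of 72 list medians, all under 0.2 in size, and no filter that of 3 of 77. No paired analysis was possible because each group holds 1 library and the labels carry no replicate numbers, and for the same reason no library could be left out. In the hairloss library 48 of 56 KRTAPs were at or under 3 fragments, where depth sets only an upper limit on their level.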

Other observations

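Replication-dependent histone genes, a list chosen after its values were seen, were lower in the hairloss library in 53 of 63 compared coding members and higher in 0, with a median difference of -1.59 and a range of -3.19 to 0.25. Their summed level was 16053.5 FPKM in the wildtype library against 5680.35 FPKM in the hairloss library, while none of 35 other cell cycle and DNA replication genes passed 2-fold. The medians of the histone list at days 0, 16 and 19 were -0.51, -0.25 and 0.32. Most of these genes are short and their messages lack a poly(A) tail, and the part of transcript length or of library preparation in the values was not tested.

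Cytosolic ribosomal protein genes had a median of -0.46 over 75 genes, with 8 of them above 0 and 4 past 2-fold lower, and their levels summed to 94586.5 and 69102 FPKM. Nuclear genes of oxidative phosphorylation had a median of -0.06 over 24 genes, with Cox5b and Cox6a1 at least 2-fold lower. None of 16 circadian, 17 heat shock and 14 Notch genes was past 2-fold. Of all compared genes 10.9% were, and for lists this short 0 is near that share. Serpinb6d, a serpin of the clade B cluster, stood at 2.24 and 109 FPKM at day 28, wildtype first, and at 0.182 and 3.01 FPKM at day 19.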
